A study of Mus musculus with 9 samples.

Results

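Azurophil granule and early myeloid genes were examined in LSK cells, the lineage-negative, Sca-1-positive, Kit-positive fraction of mouse bone marrow that holds stem cells and multipotent progenitors. The 9 genes Mpo, Elane, Prtn3, Ctsg, Ms4a3, Lyz2, Cst7, Fcgr3 and Ly6c2 were chosen by name, with earlier results of these data known. Their probes were found by matching the array's accessions to RefSeq. A single probe was found for each of 8 genes and none for Ly6c2, so 8 of the 13120 genes tested belong to the group, and all 8 were well above background on all 9 arrays. The cells carried a GFP-labelled empty vector, wild-type DNMT3A or DNMT3A R882H, and had been recovered from transplanted mice of the C57BL/6 strain and sorted. Each of the 3 groups had 3 Agilent arrays with 1 colour, hybridised from cDNA that was amplified from 3.67 ng of total RNA. DNMT3A is a DNA methyltransferase, and R882H is a substitution in it that recurs in myeloid leukaemia. The vector's promoter, the age of the mice, the time after transplantation and the number of animals behind an array are not given in the sources used here. The p-values thus reflect only how far these arrays differ, which can be technical.

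Azurophil granules are the first granules that a developing neutrophil makes, at the promyelocyte stage, and they are modified lysosomes filled with microbicidal proteins. Their genes switch on early, in progenitors that commit to granulocytes and monocytes, under the transcription factors PU.1 (Spi1), C/EBP alpha (Cebpa), RUNX1 and MYB. Transcripts of Mpo and its partners are therefore known as signs of granulocyte-monocyte priming in immature cells, before any granule is visible. Mpo encodes myeloperoxidase, which makes hypochlorous acid, and Elane, Prtn3 and Ctsg encode the serine proteases neutrophil elastase, proteinase 3 and cathepsin G. Lyz2 encodes lysozyme M, and Cst7 encodes cystatin F, an inhibitor of lysosomal cysteine proteases. Ms4a3 encodes a membrane protein of granulocyte-monocyte progenitors, Fcgr3 the activating Fc receptor CD16, and Ly6c2 a surface antigen used to sort monocytes.

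The promoters of the group share a sequence feature that the choice of genes did not use. The feature itself was picked after these promoters were read, so its count is a description and no test. The 6 bases GGAAGT, the core of the sites that ETS factors such as PU.1 bind, lie on 1 strand or the other within 250 bases before to 50 after the start in 8 of 9 genes. The genome-wide share of RefSeq windows of this length with such a match was 23.8%, and the share of genes with one in any of their windows was 26.5%. Fcgr3 had no match in its windows. For the 7 measured genes with a match, the stretch around the match is shown to let their surroundings be compared, 5′ to 3′ on the strand that reads GGAAGT, from RefSeq on build GRCm38.p6, with the match in capitals.
Mpo: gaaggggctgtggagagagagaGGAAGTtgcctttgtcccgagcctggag
Elane: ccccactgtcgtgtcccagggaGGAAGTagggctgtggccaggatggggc
Prtn3: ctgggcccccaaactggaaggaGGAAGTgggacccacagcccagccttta
Ctsg: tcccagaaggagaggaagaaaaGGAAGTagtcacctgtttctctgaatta
Ms4a3: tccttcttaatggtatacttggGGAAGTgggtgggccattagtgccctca
Lyz2: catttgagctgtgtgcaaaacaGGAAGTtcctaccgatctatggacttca
Cst7: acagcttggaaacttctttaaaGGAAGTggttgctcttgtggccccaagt

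These stretches lie at chr11:87793540-87793589 for Mpo, chr10:79886207-79886256 for Elane, chr10:79879552-79879601 for Prtn3 and chr14:56102752-56102801 for Ctsg. Those of Ms4a3, Lyz2 and Cst7 lie at chr19:11640879-11640928, chr10:117282345-117282394 and chr2:150570331-150570380. The stretches of Ctsg and Ms4a3 are shown on the minus strand and the others on the plus strand. For Lyz2, whose gene lies on the minus strand, the match is thus on the strand opposite to the gene. The match ended 49 bases before the start in Ms4a3, 56 in Cst7, 77 in Elane, 87 in Prtn3 and 94 in Lyz2, and it lay farther out in Ctsg, at 199, and Mpo, at 216. Elane and Prtn3 are neighbours in the RefSeq gene table. The MYB core AACGG occurred in the windows of Elane and Prtn3, against 17.4% of all windows and 19.6% of genes. The letters TTGCNNAA of a C/EBP site occurred in those of Ms4a3, Cst7 and Fcgr3, against 10.8% and 12.2%, and TGTGGT, the core of a RUNX site, in Ctsg, Lyz2, Cst7 and Ly6c2, against 16.8% and 18.9%. Both strands were searched in each case. A match is a stretch of letters and no measure of binding.

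Between 53.4% and 64.8% of 55681 probes were well above background per array, no spot was saturated, and precision is limited by there being 3 arrays in a group. The 6 sorting and progenitor markers listed for the LSK gate, Kit, Ly6a, Cd34, Flt3, Cd48 and Ptprc, were well above background on all 9 arrays. Levels are given as log2 intensity minus the 75th percentile of the array, so they compare arrays for 1 gene and not 1 gene with another. A second source of values stood against the labels. In the authors' deposited value table, 2 of 9 columns carried their own array's values and 7 carried a different array's, 4 of these from a different group. Array labels were taken from the scanner output throughout, apart from the setting that uses this table. By the scanner labels, the columns named empty vector and those named R882H each included a wild-type array. With the table's own column names the directions against empty vector were lost, and those values stand beside the results. In bulk RNA fewer cells of a type and less RNA per cell cannot be told apart.

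Mpo, a marker of early myeloid commitment, read 7.09, 6.56 and 7.93 with empty vector, 6.79, 7.19 and 7.68 with wild-type DNMT3A, and 5.92, 6.08 and 6.91 with R882H, for replicates 1, 2 and 3 in that order. R882H replicates 1 and 2 were the lowest of the 9 arrays, and R882H replicate 3 lay above empty vector replicate 2 and wild-type replicate 1. Group means were 7.19 ± 0.69, 7.22 ± 0.45 and 6.30 ± 0.53 (SD, n = 3). R882H thus lay 0.89 ± 0.40 (SE) log2 units below empty vector, or 1.85-fold, with a limma adjusted p of 0.554. Against wild-type DNMT3A the difference was -0.91 ± 0.40, 1.89-fold lower, with an adjusted p of 0.620 by limma. In this fit, which leaves replicate number out, Mpo was the single member with an unadjusted limma p below 0.05 in any comparison. It stood at 0.0491 against wild-type DNMT3A, where 8.04% of all genes had one. With replicate number as a block, 6 of 8 members had one against empty vector (13.6% of all genes) and 7 of 8 against wild-type DNMT3A (11.3%). None passed the adjusted threshold there.

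The serine protease genes spread more widely than Mpo. Elane read 3.61, 2.28 and 5.33 with empty vector, 2.31, 2.98 and 4.92 with wild-type DNMT3A, and 1.16, 1.76 and 3.14 with R882H. Its highest and lowest array differed 18.0-fold. R882H replicate 3 stood above empty vector replicate 2 and both of the lower wild-type arrays, so the groups overlapped. The R882H mean of 2.02 ± 1.01 (SD, n = 3) lay 1.72 ± 0.90 (SE) log2 units below the empty vector mean of 3.74 ± 1.53, or 3.30-fold (limma adjusted p = 0.575), with a 95% confidence interval of the difference from -3.75 to 0.31.

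Prtn3, next to Elane on the chromosome, read 3.23, 1.45 and 4.27 with empty vector, 1.91, 1.28 and 3.91 with wild-type DNMT3A, and 1.22, 0.57 and 2.95 with R882H. Its group means were 2.98 ± 1.42, 2.37 ± 1.37 and 1.58 ± 1.23 (SD, n = 3), in the order above, with steps smaller than the spread within any group. R882H lay 1.40 ± 0.91 (SE) below empty vector and 0.79 ± 0.91 below wild-type DNMT3A (limma adjusted p = 0.619 and 0.827).
Ctsg read 6.37, 5.47 and 7.73 with empty vector, 6.02, 6.07 and 7.27 with wild-type DNMT3A, and 4.64, 4.86 and 6.09 with R882H. The first 2 R882H arrays were again lower than every other array, and the third lay among the controls. The difference of R882H from empty vector was -1.32 ± 0.62 (SE), 2.50-fold lower, and that from wild-type DNMT3A -1.25 ± 0.62, 2.39-fold lower (limma adjusted p = 0.558 and 0.627).

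**Figure D1:**
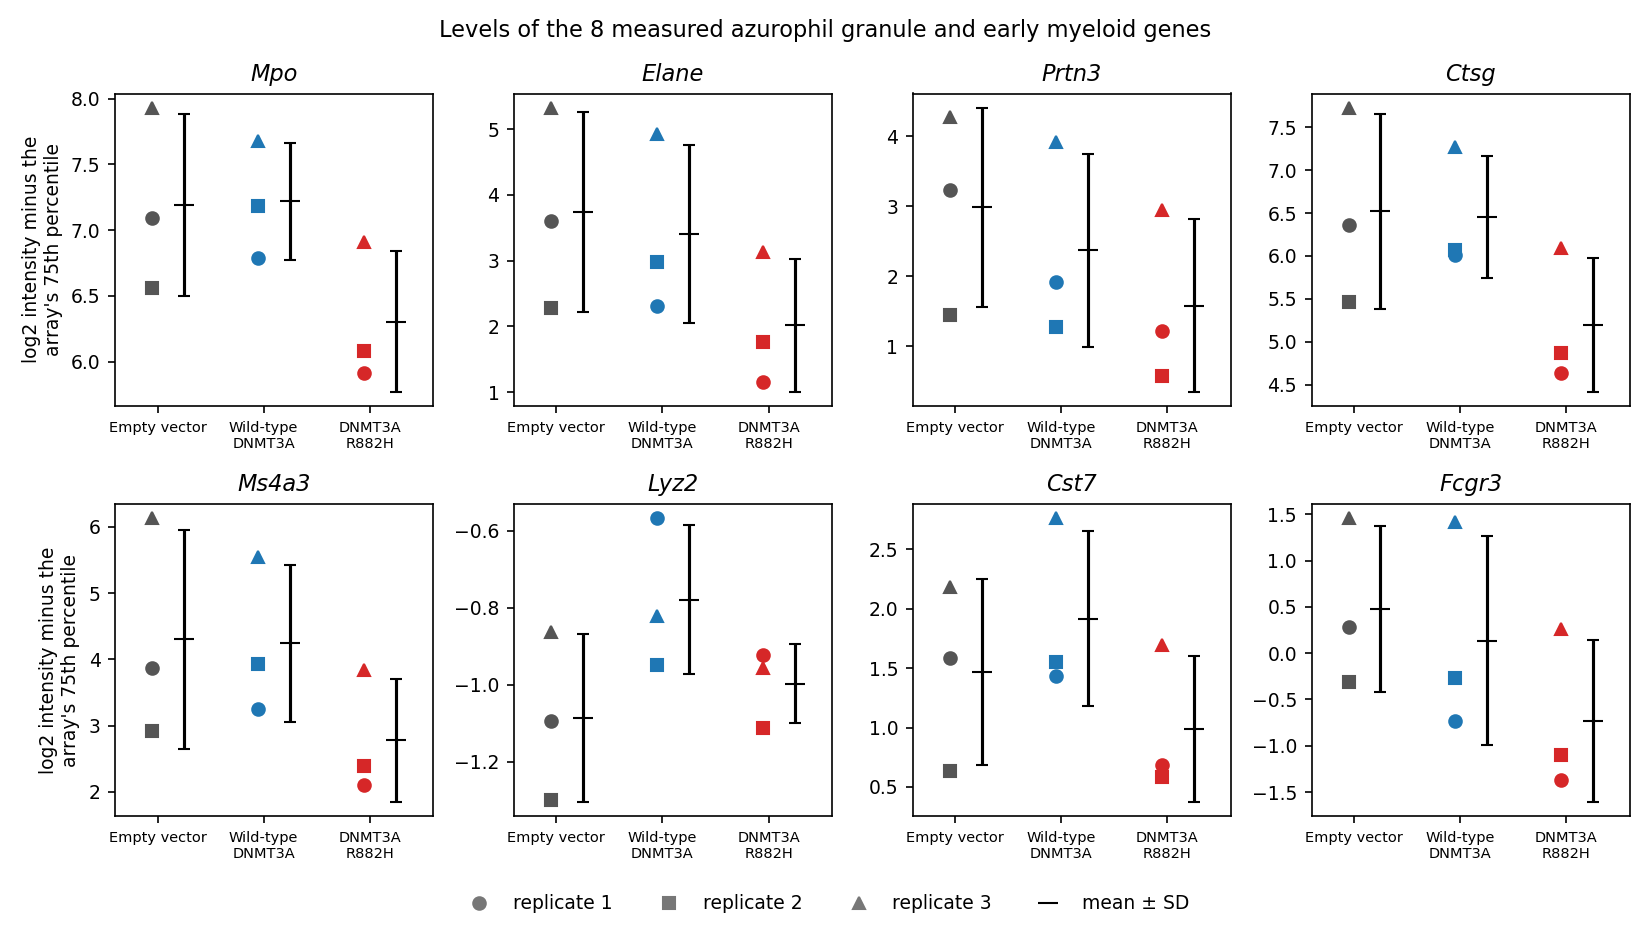
Level of each of the 8 measured genes on the 9 arrays, as log2 intensity minus the array's 75th percentile, with 1 panel and 1 scale per gene. Points are arrays, coloured by group and shaped by replicate number, and black bars give the mean ± SD of 3 arrays. In 7 panels replicate 3 (triangles) is the highest point of every group, and in Lyz2 it is not.

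Among the other granule and lysosome products, Cst7 showed the pattern in part and Lyz2 did not. Cst7 read 1.59, 0.64 and 2.19 with empty vector, 1.44, 1.55 and 2.76 with wild-type DNMT3A, and 0.69, 0.58 and 1.70 with R882H. Its highest mean was that of wild-type DNMT3A, 1.92 ± 0.74 (SD, n = 3), and R882H lay 0.93 ± 0.50 (SE) below it and 0.48 ± 0.50 below empty vector (limma adjusted p = 0.646 and 0.737). Lyz2 read -1.09, -1.30 and -0.86 with empty vector, -0.57, -0.95 and -0.82 with wild-type DNMT3A, and -0.92, -1.11 and -0.96 with R882H. All 9 values thus lay within 1.66-fold of each other, the narrowest range of the 8 genes, at processed intensities between 85.1 and 141. R882H differed from empty vector by 0.09 ± 0.17 (SE), with a 95% confidence interval from -0.30 to 0.48 (limma adjusted p = 0.861). The Lyz2 value changed sign to -0.07 when arrays were scaled to their median.

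Ms4a3, the membrane protein gene, read 3.87, 2.91 and 6.14 with empty vector, 3.25, 3.92 and 5.55 with wild-type DNMT3A, and 2.10, 2.39 and 3.84 with R882H. R882H lay 1.53 ± 0.88 (SE) log2 units below empty vector, or 2.89-fold, and 1.46 ± 0.88 below wild-type DNMT3A, or 2.76-fold (limma adjusted p = 0.586 and 0.676). Empty vector replicates 2 and 3 alone differed 9.34-fold for this gene, more than the group means did. Fcgr3 read 0.28, -0.31 and 1.46 with empty vector, -0.74, -0.27 and 1.41 with wild-type DNMT3A, and -1.36, -1.10 and 0.26 with R882H. It lay 1.21 ± 0.67 (SE) below empty vector and 0.87 ± 0.67 below wild-type DNMT3A (limma adjusted p = 0.579 and 0.743). R882H replicate 3 fell between the control arrays for both genes. For Ly6c2 no level can be given. Its neighbour Ly6c1, the related gene that lies beside it in the RefSeq gene table, read 3.80, 3.74 and 5.74 with empty vector, 3.86, 4.53 and 5.88 with wild-type DNMT3A, and 3.40, 3.40 and 4.60 with R882H. Lyz1, which lies next to Lyz2, was lower with R882H than with wild-type DNMT3A on all arrays, at -0.63 ± 0.21 (SE, limma adjusted p = 0.551). Lyz1 and Ly6c1 were chosen for their kinship after their values were seen.

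R882H was set against empty vector to see what the mutant enzyme goes with. Of 8 measured members 7 were lower with R882H, where 52.2% of all 13120 genes were, and 5 were at least 2-fold lower (Elane, Ms4a3, Prtn3, Ctsg and Fcgr3), where 0.991% of all genes were. The members were chosen with earlier results of these data known, and most varied together across arrays. Counts of members, here and below, are thus a description and no test of the group. The median difference over the members was -1.27, beside -0.02 over all genes tested. None passed the adjusted threshold of 0.05 with limma, as did none of all genes (0%), and 0 members against 9.05% of all genes had an unadjusted p below 0.05. With replicate number as a block 6 of 8 members had one, against 13.6% of all genes, and again none passed the adjusted threshold. For no member were the 3 R882H arrays all below the 3 empty vector arrays, which held for 8.96% of all genes, and none were all above, which held for 9.42%. R882H replicates 1 and 2 lay below all 3 empty vector arrays for 6 members (20.4% of all genes), all but Lyz2 and Cst7, and the same 6 lay below all 6 control arrays (8.93%). R882H replicate 3 lay above empty vector replicate 2 for all 8 (51.3% of all genes) and below replicate 3 of both control groups for all 8 (37.6%).

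Wild-type DNMT3A is the control for the enzyme itself, and this comparison uses the R882H arrays of the previous one. All 8 members were lower with R882H, where 51.8% of all genes were, with a median of -0.92 beside -0.01 over all genes. Members at least 2-fold lower were Elane, Ctsg and Ms4a3 (0.976% of all genes). Again no member passed limma's adjusted threshold (0% of all genes), and none had groups that did not overlap (8.7% of all genes were lower and 6.75% higher in that way). R882H replicates 1 and 2 lay below all 3 wild-type arrays for 7 members (15.9% of all genes), the exception being Lyz2. Wild-type DNMT3A and empty vector, compared for the effect of the added enzyme itself, gave differences of both signs. Of 8 members 5 were lower with wild-type DNMT3A (48.4% of all genes), and the median was -0.07, beside 0.01 over all genes. The values ran from -0.61 ± 0.91 (SE) for Prtn3 to 0.45 ± 0.50 for Cst7, none of them called by limma (0% of all genes), with a smallest adjusted p of 0.874, for Lyz2. None had an unadjusted p below 0.05 (5.95% of all genes), though 1 did with replicate number as a block (8.16%). None was at least 2-fold lower (0.922%), and in none were the groups apart (4.41% lower and 5.66% higher). For Elane the 95% confidence interval of this difference ran from -2.37 to 1.70.

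**Figure D2:**
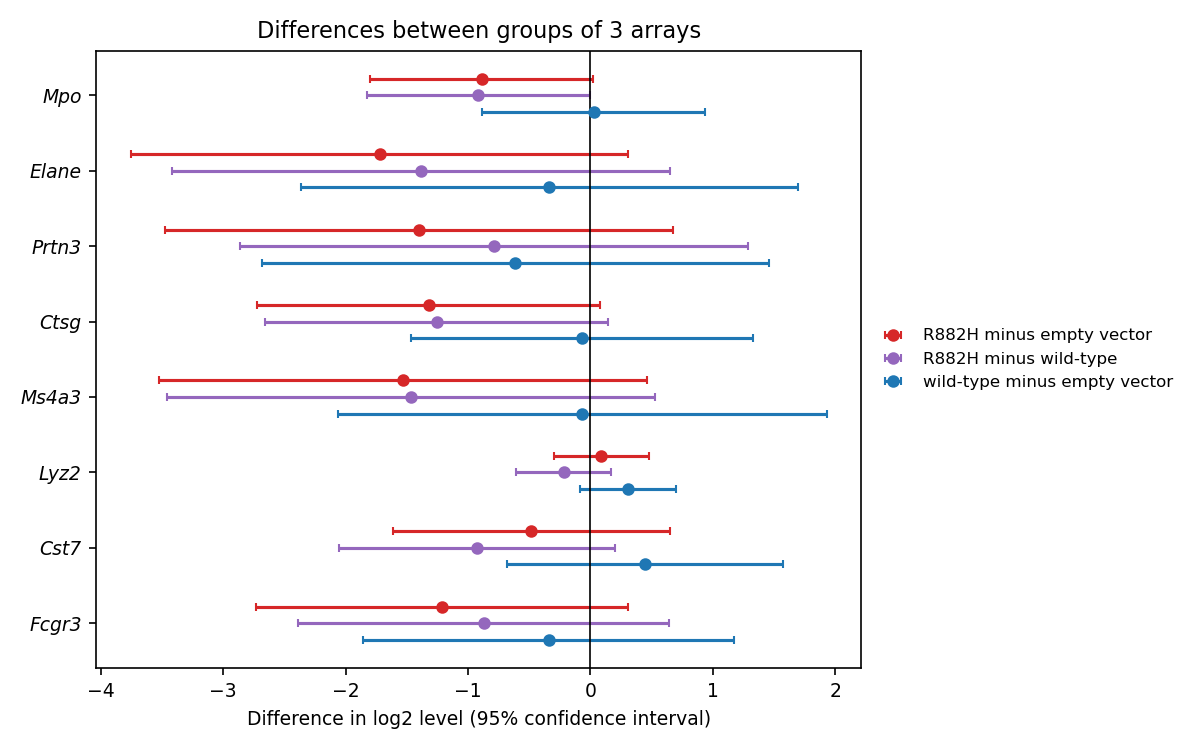
Differences in log2 level between the groups for the 8 measured genes, with 95% confidence intervals from limma, in 3 comparisons of 3 arrays against 3. The interval of 1 value, Mpo in R882H minus wild-type DNMT3A, ends below 0, at -0.0042, and all others include 0.

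Replicate number and slide moved with these values. Replicate 3 was the highest array of its group in all 3 groups for 7 of 8 members, all but Lyz2, as it was for 11.1% of all genes, and empty vector replicate 3 was the highest of all 9 arrays for 6 (15.8%). Its mean excess over replicates 1 and 2 of the same group was 2.11 log2 units for Elane, 2.10 for Prtn3 and Ms4a3, 1.63 for Fcgr3, 1.46 for Ctsg, 1.14 for Cst7 and 0.90 for Mpo, each as large as or larger than the difference between R882H and empty vector. Without number 3 in any group, R882H lay below empty vector by 1.49 ± 0.50 (SE) for Elane, 1.16 ± 0.32 for Ctsg and 0.82 ± 0.26 for Mpo, with limma adjusted p-values of 0.508, 0.505 and 0.508. The member median against empty vector was -1.16 in that setting. Leaving out empty vector replicate 3 alone brought it to -0.67, and leaving out wild-type replicate 3 or R882H replicate 3 moved the median against wild-type DNMT3A to -0.56 or -1.42. The median of wild-type DNMT3A against empty vector moved to -0.66 or 0.44 when replicate 2 or 3 of empty vector was left out, and to -0.60 when wild-type replicate 3 was.

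The 3 empty vector arrays and wild-type replicate 1 shared a slide, wild-type replicates 2 and 3 shared another with R882H replicates 1 and 2, and R882H replicate 3 was alone on its slide. Within the second slide R882H lay below wild-type DNMT3A by 1.43 log2 units for Mpo, 2.49 for Elane, 1.70 for Prtn3, 1.92 for Ctsg, 2.49 for Ms4a3, 1.52 for Cst7, 1.81 for Fcgr3 and 0.13 for Lyz2. These arrays are numbers 1 and 2 of R882H and 2 and 3 of wild-type DNMT3A, so number 3 is on the wild-type side alone. R882H replicate 2 and wild-type replicate 2 share both slide and number, a pair set side by side after the values were seen. There R882H was lower by 1.102 for Mpo, 1.23 for Elane, 0.71 for Prtn3, 1.21 for Ctsg, 1.53 for Ms4a3, 0.97 for Cst7, 0.83 for Fcgr3 and 0.16 for Lyz2, with 1 array on each side and no test. On the first slide wild-type replicate 1 lay below the mean of the empty vector arrays by 1.43 for Elane, 1.07 for Prtn3, 1.06 for Ms4a3, 1.21 for Fcgr3, 0.50 for Ctsg, 0.40 for Mpo and 0.03 for Cst7, and above it by 0.52 for Lyz2. Number 3 is on the empty vector side alone here. Wild-type replicate 1 lay above empty vector replicate 2 for every member but Fcgr3. No slide held both R882H and empty vector. With slide as a block the member medians were -2.59 against empty vector and -1.75 against wild-type DNMT3A. Limma called no gene there, and 763 and 856 genes had an unadjusted p below 0.05. In this setting R882H replicate 3, alone on its slide, does not enter the differences. Number 3 then stands on the wild-type side alone on the second slide and on the empty vector side alone on the first. These medians thus do not separate slide from number.

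With the deposited value table and its columns as named, the difference of R882H from empty vector was 0.07 for Mpo, 0.53 for Elane, 0.27 for Prtn3, 0.12 for Ctsg, 0.58 for Ms4a3, 0.46 for Cst7 and 0.44 for Fcgr3, all opposite in sign to the values above. The member median was then 0.36 against empty vector and 0.03 against wild-type DNMT3A. In sample order, the table's columns matched empty vector replicates 1 to 3, then R882H 1 to 3, then wild-type 1 to 3. The samples themselves run in another order of groups, so values and column names are out of step. By the scanner labels, the columns named R882H held R882H replicates 2 and 3 and wild-type replicate 3. Those named empty vector held its replicates 1 and 2 and wild-type replicate 1. By the scanner labels this setting thus compares mixed groups, and the members' direction above rests on those labels.

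**Figure D3:**
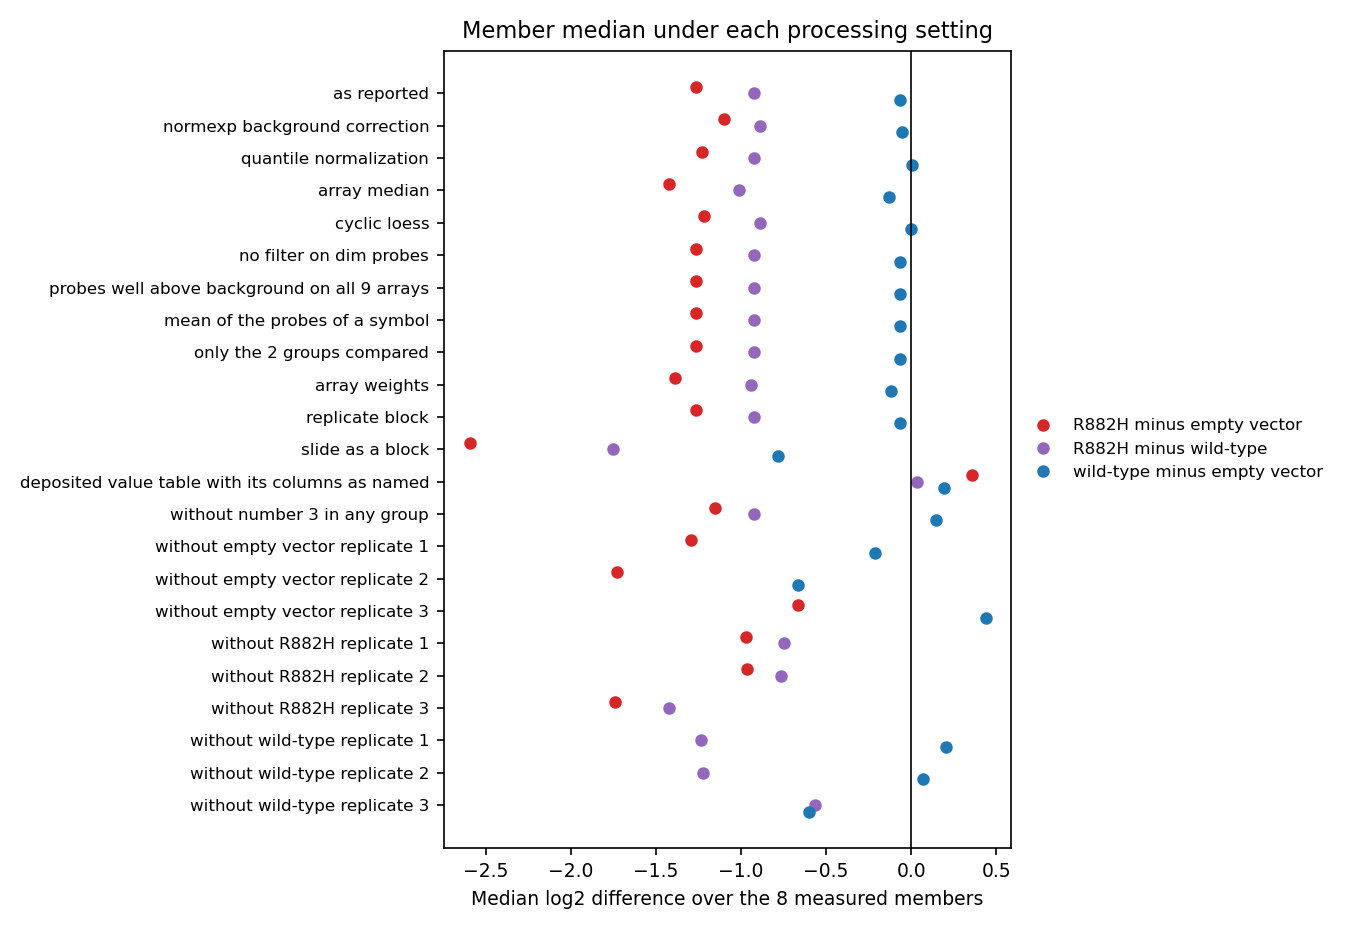
Median log2 difference over the 8 measured members in the 3 comparisons, for the values as reported and for each alternative setting. The medians of R882H against empty vector lie between -2.59 and -0.67 in all settings but the deposited value table, where the median is 0.36.

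The members varied together across arrays. Over the 9 arrays the Pearson correlation between 2 members ran from 0.85 to 0.99 in the 21 pairs without Lyz2, with a median of 0.93, and from 0.14 to 0.50 in the 7 pairs with Lyz2. Over the 6 arrays without number 3 these ranges were 0.62 to 0.99 and -0.29 to 0.48. The points share groups, slides and amplification, and the coefficients are a description. Averaged over the members, each centred on its own mean, the arrays stood at 0.30, -0.61 and 1.45 with empty vector, -0.27, -0.10 and 1.27 with wild-type DNMT3A, and -1.14, -1.07 and 0.17 with R882H. The 5 genes most like this average over 9 arrays were Hp, which encodes haptoglobin, at a correlation of 0.99, M6pr at 0.99, Ap3s1, Sec61b and Ptgr1 at 0.98 each. Hp read 3.14, 2.38 and 5.76 with empty vector, 2.69, 2.87 and 5.31 with wild-type DNMT3A and 1.35, 1.41 and 3.60 with R882H. Ap3s1, a subunit of the AP-3 coat, read between 3.79 and 5.50 with empty vector and between 3.31 and 4.14 with R882H.

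The 4 lists of pathway and related genes had medians against empty vector nearer to 0 than the members' -1.27, although single genes such as F13a1 lay farther below. None of their genes passed limma's adjusted threshold in any comparison. The counts below stand beside 52.2% of all genes lower with R882H than with empty vector and 8.96% lower without overlap. The genes named from each list include the 3 of smallest limma p against empty vector, so they do not stand for their whole list. Of 14 tested genes for other azurophil contents, their processing and their transport, 12 were lower against empty vector, with a median of -0.44, and the groups did not overlap for 4 of them. Gusb, which encodes beta-glucuronidase, read 2.16, 1.97 and 2.86 with empty vector and 1.58, 1.70 and 1.76 with R882H, a difference of -0.65 ± 0.26 (SE, limma adjusted p = 0.523). Man2b1, lysosomal alpha-mannosidase, and the granule membrane protein gene Cd63 differed by -0.44 ± 0.18 and -0.52 ± 0.21 (limma adjusted p = 0.532 and 0.525). In both the R882H arrays lay below those of empty vector without overlap. For Cd63 the difference from wild-type DNMT3A was -0.13 ± 0.21.

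Of 10 tested myeloid transcription factors, 8 were lower with R882H than with empty vector, with a median of -0.26, and 2 did not overlap between the groups. Spi1, the gene of PU.1, read 2.00, 1.64 and 2.23 with empty vector, 1.57, 1.49 and 1.97 with wild-type DNMT3A and 1.09, 0.94 and 1.61 with R882H. Its difference from empty vector was -0.74 ± 0.24 (SE, limma adjusted p = 0.512). Cebpe, a factor of later granulocyte stages, differed by -1.55 ± 0.86 and Cebpa by -0.46 ± 0.35 (limma adjusted p = 0.580 and 0.658). Gfi1, a repressor that favours granulocytes over monocytes, read 1.96, 1.77 and 2.77 with empty vector and 1.58, 1.82 and 1.70 with R882H, at -0.46 ± 0.36. Irf8, which favours monocytes, lay below wild-type DNMT3A with R882H on all arrays, by 1.004 ± 0.32 (SE), and below empty vector by 0.38 ± 0.32 (SE) with overlap (limma adjusted p = 0.551 and 0.686).

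Of 18 tested genes of granulocyte-monocyte progenitors, 17 were lower with R882H than with empty vector, with a median of -0.44, and 2 did not overlap, a share near that of all genes. F13a1, a coagulation factor chain of monocyte progenitors, read 4.12, 3.39 and 6.04 with empty vector and 1.69, 1.89 and 4.23 with R882H, the largest difference of the named genes of this list at -1.91 ± 0.85 (SE, limma adjusted p = 0.551). Emb, an embigin gene, and Nkg7, a granule membrane gene, did not overlap, at -0.52 ± 0.21 and -0.46 ± 0.21 (limma adjusted p = 0.523 and 0.556). Among 16 tested relatives of the members 11 were lower against empty vector (median -0.29), and 4 did not overlap. Fcer1g, the signalling chain that Fcgr3 needs at the surface, read 3.22, 3.31 and 3.64 with empty vector, 3.46, 3.95 and 4.03 with wild-type DNMT3A and 2.85, 2.78 and 2.88 with R882H. R882H was below both other groups without overlap, by 0.55 ± 0.19 (SE) and 0.98 ± 0.19 (limma adjusted p = 0.523 and 0.339). Fcgr2b, the inhibitory Fc receptor, and the basophil protease gene Mcpt8 differed from empty vector by -1.25 ± 0.50 and -1.04 ± 0.41 (limma adjusted p = 0.523 for both).

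Kit and Ly6a, which define the LSK gate, overlapped between the groups. Kit lay 0.26 ± 0.23 (SE) and Ly6a 0.13 ± 0.39 above empty vector with R882H (limma adjusted p = 0.693 and 0.911). Markers of some other cell classes differed between the same arrays. Of 12 late neutrophil markers 5 were well above background on all 9 arrays, and Ltf and Mmp9, of the later granules, on none. Their summed level, with the array's 75th percentile as 1, was 3.05, 2.00 and 57.1 with empty vector, 1.83, 2.93 and 15.0 with wild-type DNMT3A and 2.40, 2.39 and 4.50 with R882H. The sum was carried by some of its genes, named here after their values were seen. Of the 5 detected throughout, Lcn2 and S100a9 were highest on replicate 3 among the empty vector arrays, at 4.59 and 3.66, while Camp, Cxcr2 and Cd177 were not, at -1.64, -1.30 and -2.15. S100a8 was well above background on replicate 3 of each group and on R882H replicate 2.

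Stem cell markers ran the other way. Of 11 with a probe 8 were well above background on all arrays, and the summed level was 14.4, 22.5 and 8.89 with empty vector, 18.5, 21.4 and 10.98 with wild-type DNMT3A and 26.4, 25.9 and 17.7 with R882H. Megakaryocyte markers, 7 of 10 well above background on all arrays, summed to 20.1, 22.3 and 8.24, then 16.6, 18.0 and 9.25, then 33.0, 43.3 and 18.1. In each group the array with the highest member level thus had the lowest sum of both lists. Macrophage and dendritic cell markers, with Mrc1 and Batf3 above background on no array, summed to between 26.8 and 28.8, 28.5 and 32.1, and 27.9 and 31.8 in the same order of groups. Mast cell, basophil and eosinophil markers summed to between 6.03 and 12.9 with empty vector, 10.4 and 12.3 with wild-type DNMT3A and 4.59 and 8.20 with R882H. B lineage markers, 3 of 10 well above background on all arrays, summed to 2.33, 2.89 and 1.93 with empty vector, 3.37, 1.76 and 5.96 with wild-type DNMT3A and 4.61, 7.47 and 12.1 with R882H. Of 7 tested B lineage genes 6 were higher with R882H than with empty vector, 5 of them without overlap (9.42% of all genes), with a median of 1.35 and none past limma's adjusted threshold. T and NK lineage markers, 5 of 10 on all arrays and Cd8a on none, summed to between 5.87 and 7.48, 7.27 and 7.68, and 6.73 and 8.88 in the order of groups above. Endothelial and stromal markers, 3 of 8 on all arrays and Cdh5 on none, summed to between 6.25 and 7.39, 7.04 and 9.55, and 7.84 and 9.16. The part of any of these classes in the members' values was not tested.

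**Figure D4:**
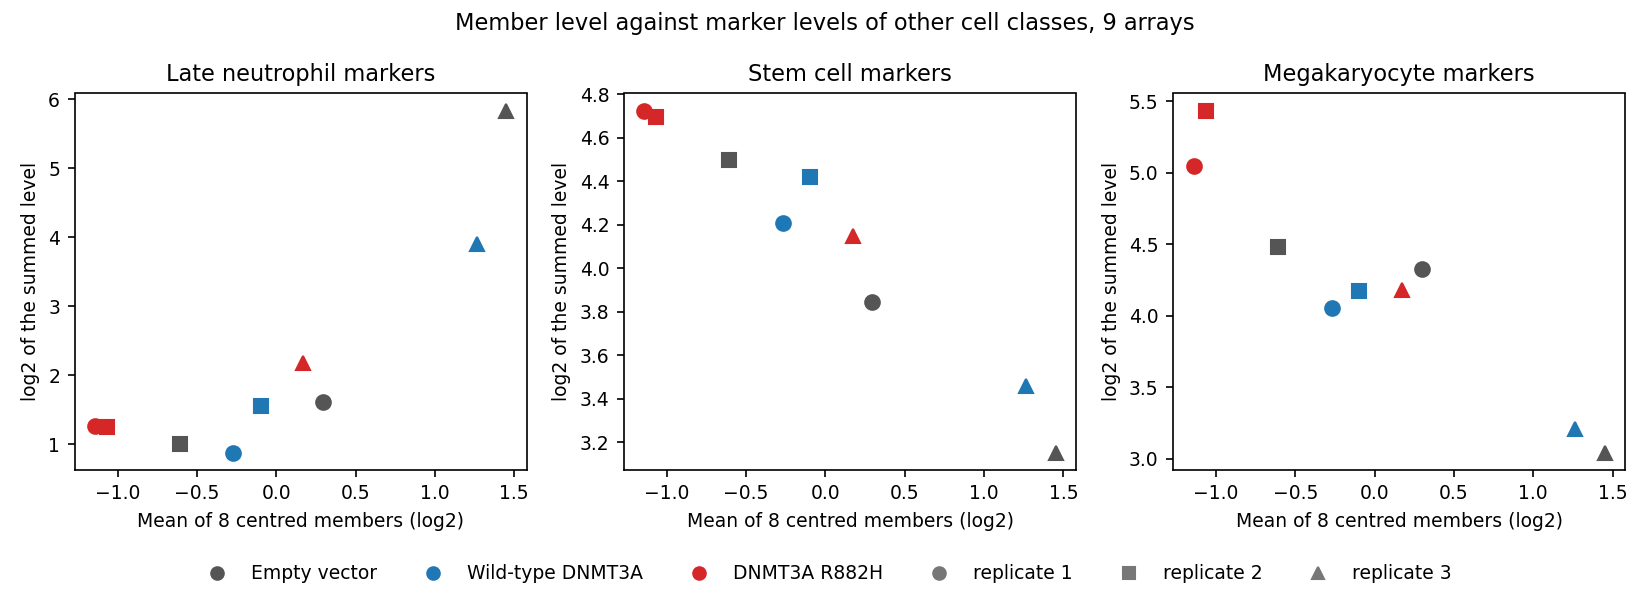
Mean level of the 8 members on each of the 9 arrays (log2, each gene centred on its own mean) against the log2 summed level of 3 marker lists. Colours give the group and shapes the replicate number. Late neutrophil sums are highest, and stem cell and megakaryocyte sums lowest, on replicate 3 of empty vector and of wild-type DNMT3A.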

How the data were processed

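Per the file headers, the authors scanned the arrays with 1 colour and quantified them with Agilent Feature Extraction 10.10.1.1 on design 028005 (build mm9). The deposited intensity was background-subtracted and detrended there, again per the file headers, and calls of spots above background are other deposited values. The authors' deposited value table holds log2 values; how they were made is not stated in the labels, and its values matched log2 intensities scaled to the 75th percentile and centred on each probe's median. Outlier spots were left out, log2 intensity was scaled to the 75th percentile of the array, and spots of a probe were averaged. Symbols came from RefSeq accessions for 27235 of 55681 probes. Genes needed a probe well above background on all 3 arrays of a group, and the brightest was used. Groups were compared with limma 3.58.1 in R 4.3.3 on all 9 arrays with Benjamini-Hochberg adjustment, tested on simulated data. The median pixel signal stood in for the mean signal in normexp correction.

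The members, gene lists, motifs and tests were chosen with earlier results of these data known, and the motifs after the promoters were read. Named genes were the members, the 3 genes of smallest p against empty vector per pathway or family list, Cebpa, Spi1, Gfi1, Irf8, Kit and Ly6a, and the 5 genes most like the member mean. Same-numbered deviations correlated at 0.116, 0.222 and 0.325 between wild-type DNMT3A and empty vector, all above the limit of 0.1 set for pairing. The main fit still left replicate number out in every comparison, so its errors and p-values do not use a shared number. The fit with number as a block is given beside it. The correlations were 0.0884, 0.198 and 0.279 between R882H and empty vector. Between R882H and wild-type DNMT3A they were 0.0714, 0.137 and 0.239. In both comparisons number 1 fell below the limit and numbers 2 and 3 above it. Arrays of unlike number were not set beside these, so the limit cannot tell whether R882H arrays are paired with the others.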

Additional observations from a re-analysis of the deposited data

How the results depend on the processing

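Each comparison was run under 19 alternatives, 6 of them leaving out 1 of its arrays, and limma called 0 genes in all of them, where 321 to 1954 genes had an unadjusted p below 0.05. Of 152 member values against empty vector 143 kept their sign, against wild-type DNMT3A 148 of 152, and between wild-type DNMT3A and empty vector 125 of 152. Causes were not tested.

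With the value table as named, members against empty vector stood at 0.0745 (Mpo), 0.53 (Elane), 0.27 (Prtn3), 0.12 (Ctsg), 0.58 (Ms4a3), 0.46 (Cst7) and 0.44 (Fcgr3), with a median of 0.36. Against wild-type DNMT3A, Elane, Prtn3, Cst7 and Fcgr3 stood at 0.12, 0.22, 0.21 and 0.25, with a median of 0.0332. For wild-type DNMT3A against empty vector, Elane, Prtn3, Ctsg, Ms4a3 and Fcgr3 stood at 0.42, 0.0508, 0.19, 0.70 and 0.19.

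Other changes of sign against empty vector were Lyz2 with the array median, at -0.0652, and for wild-type DNMT3A Ctsg with quantile normalization (0.0476) and cyclic loess (0.0183), Mpo with the array median (-0.0361), array weights (-0.0210) and slide as a block (-0.40), and Cst7 with slide as a block (-0.0347). Without number 3 Ctsg and Ms4a3 stood at 0.13 and 0.19. With slide as a block the medians were -2.59 for R882H against empty vector and -1.75 against wild-type DNMT3A. R882H replicate 3 does not enter these medians, and number 3 is not balanced in them.

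Leaving out 1 array, Lyz2 ran from -0.0176 to 0.20 in R882H against empty vector. For wild-type DNMT3A against empty vector, Mpo ran from -0.29 to 0.40, Elane from -1.09 to 0.46, Prtn3 from -1.38 to 0.0293, Ctsg from -0.60 to 0.54, Ms4a3 from -0.76 to 0.85 and Fcgr3 from -0.98 to 0.15. Member medians ran from -1.74 to -0.67 for R882H against empty vector, -1.42 to -0.56 against wild-type DNMT3A and -0.66 to 0.44 for wild-type DNMT3A against empty vector.

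With the replicate block no differences moved and no call changed. The smallest adjusted p of a member was 0.247 against empty vector, for Prtn3, Ctsg and Fcgr3, at -1.40 ± 0.25, -1.32 ± 0.25 and -1.21 ± 0.23 (SE). An unadjusted p below 0.05 was then reached by 6 of 8 members against empty vector in place of 0 (13.6% of all genes), and by 7 of 8 against wild-type DNMT3A in place of 1 (11.3%). For wild-type DNMT3A against empty vector 1 of 8 reached it in place of 0 (8.16%). Over all genes, those with an unadjusted p below 0.05 numbered 1786 for R882H against empty vector in place of 1187. Without the block, that number against empty vector was 702 without R882H replicate 1, 665 without R882H replicate 2, 763 with slide as a block, 614 with the value table and 1954 with array weights. For R882H against wild-type DNMT3A it was 321 with the value table in place of 1055, and for wild-type DNMT3A against empty vector 1282 without wild-type replicate 3 in place of 781.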
